A study of Mus with 4 samples.

Results

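The genes described here are those of the small proline-rich (Sprr) family and of the cornified envelope: Sprr1a, Sprr1b, Sprr2d, Sprr2f, Sprr2h, Sprr2i, Sprr3, Ivl, Lor and Tgm1. They are 10 of the 18193 genes with at least 1 probe set that the array annotation gives to a single symbol. Every probe set whose only annotated symbol is one of the 10 was taken, which gave 13 of 45037 probe sets. The genes were chosen by values of this same contrast, since the vorinostat and DMSO arrays had been analysed before they were picked, so their differences between the groups are a description and carry no test.

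Expression was measured on 4 Affymetrix mouse arrays. In the vorinostat group (2 arrays), PPS-ICBR cells received 5 µM vorinostat dissolved in DMSO. In the DMSO group (2 arrays), the same cells received 5 µL of DMSO in 10 mL of medium. Both groups were plated at 60% confluency, grew in DMEM with serum and antibiotics and were kept overnight with the agent. PPS-ICBR is labelled as a prostate cancer cell line of strain C57Bl6, so all arrays come from a single line. Nothing in the labels tells whether separate cultures were used within a group, and the p-values given for other genes then measure only the spread between these arrays, which may be technical. Vorinostat is an inhibitor of histone deacetylases, which remove acetyl marks from histones and from many other proteins.

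The cornified envelope is the protein shell that replaces the plasma membrane of a keratinocyte as it dies at the surface of a stratified epithelium such as the epidermis. Transglutaminases, with Tgm1 as the membrane-anchored one, join involucrin (Ivl), loricrin (Lor) and the small proline-rich proteins to one another by covalent bonds between glutamine and lysine side chains. Most of these precursors are encoded side by side in the epidermal differentiation complex, and a glandular epithelium such as that of the prostate does not normally build an envelope. Small proline-rich genes are also known to be switched on outside stratified epithelia, for example Sprr1a in injured sensory neurons and stressed heart muscle.

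In these cells the 10 genes did not behave as one set. Sprr2h, Sprr1b and Sprr1a had log2 differences of 5.16, 4.22 and 2.19 (vorinostat minus DMSO), Sprr2d had one of 0.81, and the other 9 probe sets lay between -0.08 and 0.39. Those 9 include every probe set of Ivl, Lor and Tgm1, the precursors and the enzyme at the centre of the epidermal envelope. In RNA from whole cultures, a change in the number of cells of a type and a change in RNA per cell cannot be told apart.

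Values are the deposited log2 values, 1 per probe set and array. A value is called near background if it is within 1 log2 unit of the highest of the array's 3 control probe sets for the bacterial gene trpn, which put the limit at 3.54 to 3.78 depending on the array. By this limit 4 of the 13 probe sets were near background on all 4 arrays, namely those of Sprr2f, Sprr2i and Tgm1 and the second one of Ivl, so these arrays cannot show how such genes differed. The ending of a probe set's name gives its type. The 10 probe sets that end in _at were designed for a single transcript, the 2 that end in _s_at (Sprr2h and one of Lor) share their probes with more than one transcript, and the 1 that ends in _a_at (Tgm1) covers alternative transcripts of one gene.

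**Figure D1:**
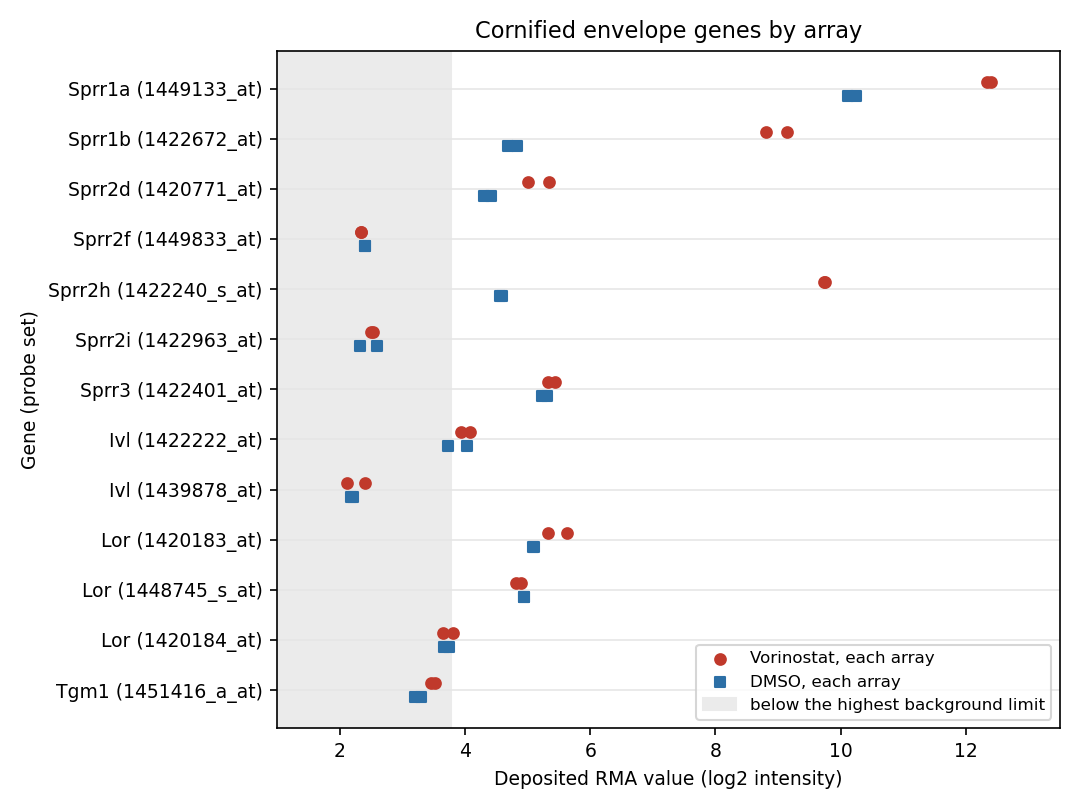
Deposited log2 value of each of the 13 probe sets on every array, with the vorinostat arrays as red circles above the DMSO arrays as blue squares, and the range below the highest background limit (3.78) in grey. The arrays of the 2 groups stand far apart for Sprr2h, Sprr1b and Sprr1a, closer for Sprr2d, and near each other for the rest.

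Sprr1a encodes a small proline-rich protein that serves as a cross-bridge between other envelope proteins. Its probe set (1449133_at) had values of 12.34 and 12.40 on the vorinostat arrays, against 10.25 and 10.11 on the DMSO arrays. Both DMSO values were far above the background limit, so the transcript was already measured without vorinostat, and the groups did not overlap. The means were 12.37 ± 0.04 with vorinostat and 10.18 ± 0.09 with DMSO (SD, n = 2 each), a log2 difference of 2.19 (SE 0.09), or 4.57-fold.

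Sprr1b is the close relative of Sprr1a and a classical marker of squamous differentiation in airway and skin. It is the only other Sprr1 gene among the 10. Its probe set (1422672_at) had values of 9.14 and 8.80 with vorinostat, against 4.83 and 4.68 with DMSO. The DMSO values lay about 1 log2 unit above the background limit, and the vorinostat values were far higher on both arrays. The difference of 4.22 (SE 0.14) corresponds to 18.6-fold on the linear scale and ranked 17 from the top among all 45037 probe sets.

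The Sprr2 genes encode the shortest small proline-rich proteins, which also act as cross-bridges, and 4 of them are among the 10. The probe set of Sprr2h (1422240_s_at) had values of 9.74 and 9.73 with vorinostat, against 4.59 and 4.56 with DMSO. Its arrays were nearly identical within each group and did not overlap between groups. The difference of 5.16 (SE 0.08), 35.8-fold, ranked 2 from the top among all probe sets. Because its probes are shared with more than one transcript, other transcripts may contribute to the value.

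Sprr2d (1420771_at) had values of 5.00 and 5.33 with vorinostat, against 4.31 and 4.41 with DMSO. The groups did not overlap, and the difference was 0.81 (SE 0.13), or 1.75-fold. Sprr2f (1449833_at) had 2.33 on both vorinostat arrays, against 2.40 on both DMSO arrays. Sprr2i (1422963_at) had 2.52 and 2.49 with vorinostat, against 2.32 and 2.60 with DMSO. The last 2 probe sets were near background throughout, and the groups of Sprr2i overlapped. Sprr3 is a relative known from the oral and oesophageal lining. Its probe set (1422401_at) had values of 5.44 and 5.32 with vorinostat, against 5.31 and 5.22 with DMSO. These were above the background limit, but the highest DMSO and the lowest vorinostat value were nearly equal, and the difference was 0.11 (SE 0.09).

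Involucrin, the early scaffold on which the envelope is built, was measured by 2 probe sets. The first (Ivl, 1422222_at) had 4.09 and 3.94 with vorinostat, against 4.02 and 3.72 with DMSO. The second (Ivl, 1439878_at) had 2.39 and 2.11 with vorinostat, against 2.22 and 2.17 with DMSO. The groups overlapped at both, with differences of 0.14 (SE 0.13) and 0.06 (SE 0.12). The first lay close to the background limit, just below it on DMSO 2, and the second was near background.

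Loricrin, the glycine-rich protein that makes up most of the mature epidermal envelope, was measured by 3 probe sets that did not give the same difference. At 1420183_at Lor had 5.33 and 5.62 with vorinostat, against 5.08 and 5.09 with DMSO, a difference of 0.39 (SE 0.12) without overlap. At the _s_at probe set (1448745_s_at) Lor had 4.82 and 4.89 with vorinostat, against 4.94 and 4.93 with DMSO, a difference of -0.08 (SE 0.08). At 1420184_at Lor had 3.80 and 3.65 with vorinostat, against 3.75 and 3.67 with DMSO, close to the background limit, with overlapping groups and a difference of 0.02 (SE 0.09). The first probe set was thus higher with vorinostat, the second slightly lower and the third at the same level within its spread. Tgm1, the enzyme that anchors and cross-links these precursors at the membrane, had 3.45 and 3.52 with vorinostat, against 3.20 and 3.29 with DMSO (1451416_a_at). The arrays of the groups did not overlap, but all 4 values were near background, and the difference was 0.24 (SE 0.08).

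Across the 13 probe sets, 2 arrays of one group differed by at most 0.33. The vorinostat arrays lay above the DMSO arrays without overlap at 7 probe sets and below them at 2, where 33.1% of all probe sets lay above and 29.7% below. In the limma fit over all probe sets, 4 of the 13 were past the adjusted p threshold of 0.05 and higher (Sprr1a, Sprr1b, Sprr2d and Sprr2h) and 0 were lower, also at an unadjusted p under 0.05, and 16.5% of all probe sets were past it and higher and 15.7% past it and lower. These counts describe genes picked for this contrast. The median difference was 0.14 over the 13 probe sets and 0.01 over all probe sets. Sprr2d was no longer past the threshold without DMSO 1 or without DMSO 2, though its difference stayed at 0.76 and 0.86. Lor at 1420183_at passed it without Vorinostat 1, with an intensity trend and among brighter probe sets only. The deposited scale was compared with one on which the arrays are equal in the mean of 9 reference genes. It adds 0.31 to every difference, moves the median probe set to 0.32, puts 11 of the 13 probe sets past the threshold as higher, and changes the split of all calls from 51.3% higher to 84.6% higher. On that scale Sprr2h, Sprr1b and Sprr1a stood at 5.47, 4.53 and 2.50.

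Other probe sets of the family show how unevenly the Sprr2 genes moved. Sprr2k (1422425_at) rose, with 6.78 and 6.60 on vorinostat arrays against 5.82 and 5.77 on DMSO arrays, a difference of 0.89 (SE 0.09, adjusted p = 0.00173 by limma). Sprr2j-ps (1450811_at), annotated as a transcribed pseudogene, rose as well, with 5.41 and 5.06 on vorinostat arrays against 3.79 and 3.61 on DMSO arrays. Its difference was 1.54 (SE 0.14, adjusted p = 0.00112 by limma). A further 3 probe sets are each annotated to several of Sprr2a1, Sprr2a2 and Sprr2a3 at once. They are assigned here to no single gene, and the 2 of them above background fell.

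The first of these (1450618_a_at) had 7.98 and 8.42 with vorinostat, against 8.99 and 9.03 with DMSO, and fell by 0.81 (SE 0.16, adjusted p = 0.0138 by limma). The next (1439016_x_at) had 8.17 and 8.61 with vorinostat, against 8.94 and 9.08 with DMSO, and fell by 0.61 (SE 0.16, adjusted p = 0.0374 by limma). The groups did not overlap at either, and both were far above the background limit. The third (1437258_at) was near background on all arrays, so its difference of -0.37, just inside the threshold, is not resolved by these arrays, and it lost its call under the replicate block and reference-gene scaling. The fall at 1439016_x_at lost its call under reference-gene scaling and renewed quantile normalization. Without DMSO 1 or without DMSO 2 none of the 3 was called, and over the omission of single arrays their adjusted p by limma ranged from 0.0164 to 0.125, 0.0288 to 0.216 and 0.0564 to 0.205. Sprr2k and Sprr2j-ps were called whichever array was left out.

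**Figure D2:**
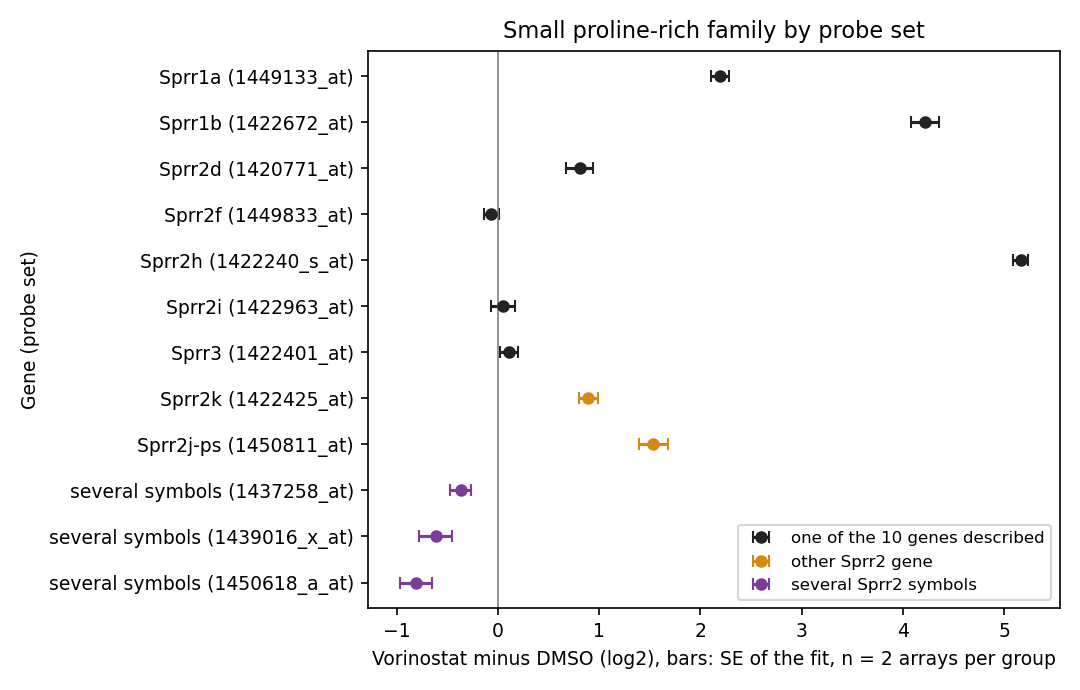
Log2 difference, vorinostat minus DMSO, of each probe set of the small proline-rich family, with bars for the SE of the fit (n = 2 arrays per group). Black points are probe sets of the 10 genes, orange those of Sprr2k and Sprr2j-ps, and purple the 3 probe sets with several Sprr2 symbols, which lie between -0.81 and -0.37 while Sprr2h lies at 5.16.

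Of the 10 genes, 9 lie in one stretch of a single chromosome in the RefSeq order of genes (assembly GRCm38.p6), between Lor and S100a10, and Tgm1 lies on another chromosome. The stretch holds 74 genes and pseudogenes, of which 38 were measured here, 29 of them not among the 10. Of these 29 neighbours, 9 rose and 0 fell past the threshold, where 20.9% of all genes rose and 18.9% fell. Only probe sets with a single symbol count here. The probe sets with several Sprr2 symbols are thus left out, among them 1450618_a_at (-0.81) and 1439016_x_at (-0.61), which fell past the threshold. The median difference of the 29 was 0.20, against 0.03 over all genes. The lowest of the 29 was -0.23, and at an unadjusted p of limma under 0.05 the falls also numbered 0. Many of the 29, such as Lce1c, Flg, Hrnr and Tchhl1, were near background on all arrays, so they could hardly show a fall. The rises numbered 5 without DMSO 1 and 5 without Vorinostat 1, and 21 under reference-gene scaling, alternatives that were added after the data were seen.

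The neighbour with the largest difference was Prr9, a proline-rich gene next to Lor in the measured order, named after its values were seen. It had 9.62 and 9.49 with vorinostat, against 5.67 and 5.69 with DMSO, and rose by 3.88 (SE 0.09, adjusted p = 0.00016 by limma). Crct1, a cysteine-rich C-terminal gene between the Lce3 genes and Lce1m, had 9.38 and 8.98 with vorinostat, against 7.13 and 6.90 with DMSO, and rose by 2.17 (SE 0.16, adjusted p = 0.000589 by limma). S100a10, the annexin A2 partner at the end of the stretch, rose by 0.94 (SE 0.08, adjusted p = 0.000757 by limma), and its other 2 probe sets rose by 0.89 and 1.29. In the measured order Sprr2j-ps, Sprr2k and Sprr1b, all higher with vorinostat, stand side by side, whereas Sprr2f and Sprr2i, both near background, flank Sprr2h, and Sprr3, with a difference of 0.11, lies between Sprr1b and Sprr1a. Whether the rises cluster along the stretch was not tested.

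**Figure D3:**
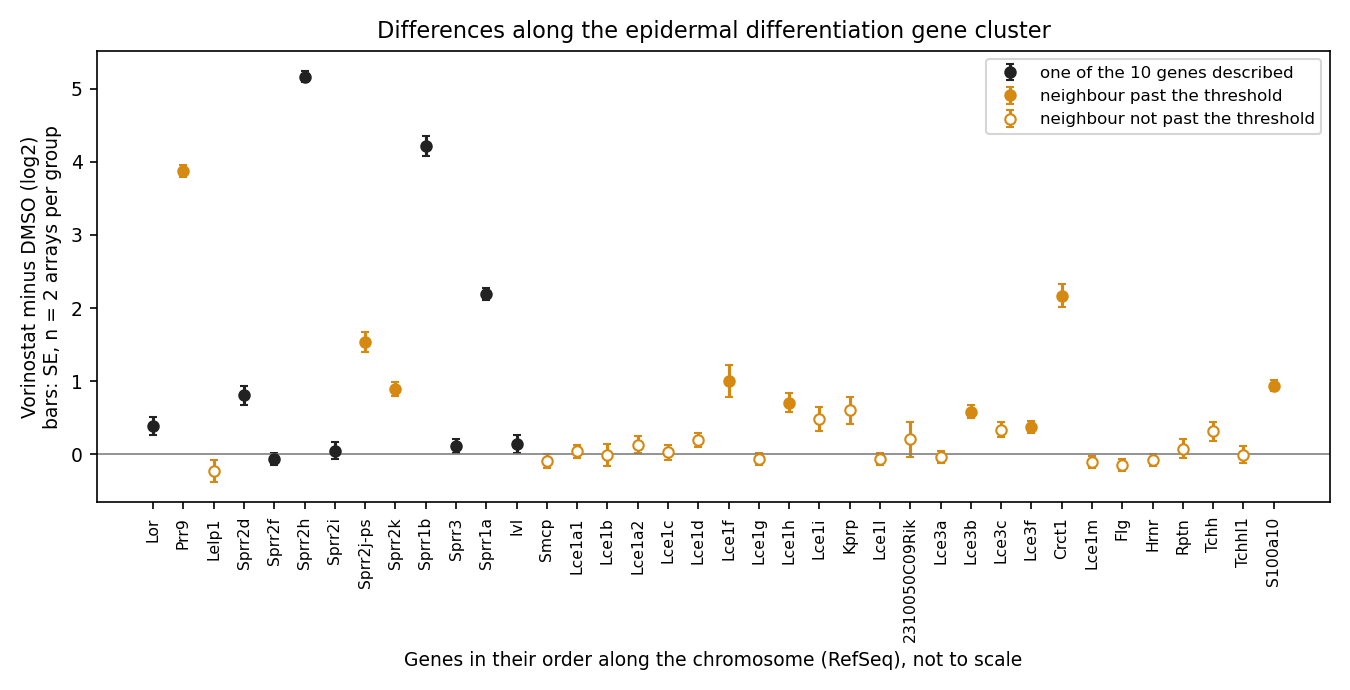
Log2 difference, vorinostat minus DMSO, of the 38 measured genes between Lor and S100a10 in their RefSeq order, evenly spaced and not to scale, with bars for the SE (n = 2 arrays per group). Black points are genes of the 10, filled orange points are neighbours past the threshold, open orange points are neighbours that are not, and the points above 2 are Prr9, Sprr2h, Sprr1b, Sprr1a and Crct1.

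Other proteins of the envelope and its cross-linking enzymes were followed in a list of 60 genes, 40 of them measured. Of these, 12 rose and 0 fell past the threshold (30.0% and 0%, against 20.9% and 18.9% of all genes), and 16 were near background on all arrays. At an unadjusted p under 0.05 in the same limma fit, 2 of the 40 fell. Sprr2a1, Sprr2a2 and Sprr2a3 are in the list of 60 but do not count as measured, because their probe sets carry several symbols. Of those probe sets, 1450618_a_at (-0.81) and 1439016_x_at (-0.61) were above background and fell past the threshold, so the 0 falls leave them out. Of the 40 genes, 25 are also among the 29 neighbours above, and so are 8 of the 12 rises, so the counts overlap. The median difference of the list was 0.13. The rises numbered only 5 without DMSO 1 and 6 without Vorinostat 1. The late cornified envelope (Lce) genes encode small cysteine-rich proteins of the upper epidermis. Among 15 measured Lce genes 4 rose (26.7%, near the 20.9% of all genes) and 11 did not pass, and 2 of the 4 rises came from _x_at probe sets, whose probes can match related sequences. Without DMSO 1, and likewise without Vorinostat 1, 0 Lce genes were past the threshold, and 3 were without DMSO 2, 2 without Vorinostat 2 and 13 under reference-gene scaling. Lce1f (1420550_at) had 4.71 and 4.07 with vorinostat, against 3.48 and 3.30 with DMSO, and its DMSO values were near background. Its rise is therefore given as at least 0.75 on the log2 scale (at least 1.68-fold, adjusted p = 0.0207 by limma), and a second probe set had 0.08. Lce1f was not called without DMSO 1, DMSO 2 or Vorinostat 1, with an adjusted p of up to 0.168.

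Periplakin (Ppl), a plakin that ties keratin filaments to the envelope, had 6.34 and 6.43 with vorinostat, against 5.19 and 5.04 with DMSO, and rose by 1.27 (SE 0.09, adjusted p = 0.000587 by limma). Its partner envoplakin (Evpl) had a difference of 0.03 (SE 0.13, adjusted p = 0.886 by limma). The other transglutaminases in the list did not pass either. Tgm2, the widely expressed tissue transglutaminase, had -0.25 (SE 0.10, adjusted p = 0.113 by limma), and Tgm3, the epidermal and hair follicle enzyme, 0.53 (SE 0.21, adjusted p = 0.12 by limma). Tgm3 passed without DMSO 2 and under reference-gene scaling, and Tgm2 passed as lower with an intensity trend. Tgm4, the transglutaminase of prostate secretion, is not in the list and fell by 0.35 (adjusted p = 0.0247 by limma), named after its values were seen. It was not called without any one of the 4 arrays (adjusted p of up to 0.126), nor under reference-gene scaling. Filaggrin (Flg), the matrix protein of the granular layer, was near background on all arrays.

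The lipid envelope, the proteases that shed cornified cells and their inhibitors formed a list of 35 genes, 33 of them measured. In this list 10 rose and 2 fell past the threshold (30.3% and 6.06%, against 20.9% and 18.9% of all genes). The median difference was 0.17. The rises numbered 6 when either DMSO 1 or Vorinostat 2 was left out, 5 when either DMSO 2 or Vorinostat 1 was, and 6 with the replicate number as a block. Lysosomal enzymes that most cell types use were among the rises. The protease legumain (Lgmn) rose by 1.30 (SE 0.08), cathepsin D (Ctsd) by 0.91 (SE 0.08), the acid sphingomyelinase Smpd1 by 0.73 (SE 0.09) and cathepsin L (Ctsl) by 0.58 (SE 0.08), with adjusted p by limma from 0.000362 to 0.00372. A second, dimmer probe set of Ctsl rose by 1.85, and a second one of Smpd1 did not pass at 0.44. Sptlc2, a subunit of the enzyme that starts sphingolipid synthesis, rose by 0.68 (SE 0.08, adjusted p = 0.00254 by limma), with other probe sets at 0.90 (called) and 0.16 (not called), and the lipid-processing gene Pnpla1 rose by 0.47 but was not called without any one of the 4 arrays. Cystatin M/E (Cst6), the inhibitor of legumain and cathepsins in skin, had 9.81 and 9.76 with vorinostat, against 10.67 and 10.57 with DMSO, and fell by 0.84 (SE 0.08, adjusted p = 0.00142 by limma). The fatty acid elongase Elovl1 fell by 0.80 (SE 0.09, adjusted p = 0.00227 by limma).

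Keratins mark the layer and kind of an epithelium, and 18 of 18 listed were measured. 1 rose and 5 fell past the threshold (5.56% and 27.8%, against 20.9% and 18.9% of all genes). The median difference was -0.08. The falls numbered 2 when DMSO 2 was left out and 3 when any of the other arrays (DMSO 1, Vorinostat 1 or Vorinostat 2) was, and with arrays scaled on the reference genes 7 keratins rose and 4 fell. The simple-epithelial keratin Krt8 had 11.11 and 11.40 with vorinostat, against 12.25 and 12.36 with DMSO, and fell by 1.05 (SE 0.12, adjusted p = 0.00222 by limma), whereas its partner Krt18 had a difference of -0.07 (SE 0.08, adjusted p = 0.581 by limma). Krt19, the keratin that rose, had 9.18 and 9.36 with vorinostat, against 8.21 and 8.13 with DMSO (difference 1.10, SE 0.10, adjusted p = 0.000928 by limma).

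Of the keratins of stratified epithelia, Krt1, the partner of Krt10 in the cornifying epidermis, was near background on all arrays, and Krt10 had a difference of -0.27 (SE 0.09, adjusted p = 0.0762 by limma). The basal keratins Krt5 and Krt14 had 0.09 (adjusted p = 0.602) and 0.23 (adjusted p = 0.192 by limma), and both became calls of higher expression under reference-gene scaling. A dimmer probe set of Krt14 rose by 0.44 (adjusted p = 0.00957 by limma) but was not called without any one of the 4 arrays, and another had 0.22 and did not pass. Krt4, of the oral and oesophageal lining, fell by 0.80 (SE 0.16, adjusted p = 0.014 by limma), Krt80 fell by 0.99 (SE 0.09, adjusted p = 0.000986) and Krt7 fell by 0.57 (SE 0.09, adjusted p = 0.00571). Krt6a, a keratin of wounded and activated epidermis, fell by 0.42 at its brightest probe set (SE 0.12, adjusted p = 0.0457 by limma). Its other probe sets had -0.35 and -2.38, and 1 of them was also past the threshold as lower. Of these falls, Krt80 was called whichever array was left out, and Krt4, Krt7 and Krt6a each lost the call without 3 of the 4 arrays.

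Factors and signals known to act on keratinocyte differentiation were the last list, with 46 of 49 measured. Here 18 rose and 6 fell past the threshold, with a median difference of 0.20. The share that rose was 39.1%, against 20.9% of all genes, and the share that fell was below the 18.9% of all genes. The falls numbered 1 when either DMSO 1 or Vorinostat 1 was left out, 2 when DMSO 2 was and 3 when Vorinostat 2 was, and 1 under reference-gene scaling. Promoters of Sprr genes are known to be bound by AP-1, ETS and Krüppel-like factors, and the list holds some of each. A link of these factors to the differences of the Sprr genes was not tested. Of 7 AP-1 subunits 4 rose (Fos, Junb, Fosl2 and Jund) and 1 fell (Fosl1), of 5 ETS factors 1 rose (Elf3) and 1 fell (Ets2), and of 2 Krüppel-like factors 1 rose (Klf5, by 0.63, adjusted p = 0.00343 by limma) and 0 fell, also at an unadjusted p under 0.05. Klf5, Fosl2 and Jund were named after their values were seen, and each has at least 1 other probe set that did not pass. Jund was not called without DMSO 1, DMSO 2 or Vorinostat 1. Junb had 9.23 and 9.22 with vorinostat, against 7.13 and 7.13 with DMSO, and rose by 2.10 (SE 0.08, adjusted p = 0.000168 by limma). Fos had 7.42 and 7.12 with vorinostat, against 5.21 and 5.31 with DMSO, and rose by 2.01 (SE 0.12, adjusted p = 0.000364 by limma). Fosl1 (FRA-1), a subunit known to drive Ivl and Sprr transcription in keratinocytes, had 7.89 and 8.02 with vorinostat, against 9.35 and 9.24 with DMSO, and fell by 1.34 (SE 0.09, adjusted p = 0.000489 by limma). These 3 kept their calls whichever array was left out.

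Elf3 (ESE-1), an epithelial ETS factor that acts on SPRR promoters in human cells, had 6.46 and 6.49 with vorinostat, against 5.30 and 5.33 with DMSO, and rose by 1.17 (SE 0.08, adjusted p = 0.000443 by limma). Its relative Ehf was near background on all arrays. Klf4, which is needed for the skin barrier in mice, had a difference of 0.23 (SE 0.09, adjusted p = 0.114 by limma) and was called in 4 of 5 alternatives that keep all arrays. Hopx, a homeodomain cofactor of the upper epidermis, rose by 1.14 (SE 0.09, adjusted p = 0.000626 by limma), and the cytokine Il1a, stored by keratinocytes, by 1.42 (SE 0.10, adjusted p = 0.000562). Il6 had 4.33 and 4.40 with vorinostat, against 2.12 and 2.25 with DMSO near background, and rose by at least 0.72 on the log2 scale (adjusted p = 0.000185 by limma).

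Several regulators of stratified epithelium did not pass the test. Trp63, which specifies stratified epithelium, had a difference of 0.05 (SE 0.19, adjusted p = 0.869 by limma) and Zfp750, a target of p63 in terminal differentiation, 0.14 (SE 0.13, adjusted p = 0.468). Grhl3 and Ovol1 were near background on all arrays, and Zfp750 and Grhl3 were called higher under reference-gene scaling. Other regulators of the list were among its 18 rises, for example Grhl1 at 0.57 (adjusted p = 0.00919) and Notch3 at 0.83 (adjusted p = 0.00512 by limma), both named after their values were seen. Grhl1 was not called without DMSO 1, Vorinostat 1 or Vorinostat 2, and Notch3 was not without DMSO 1 or Vorinostat 2. Notch1, which promotes the exit of keratinocytes from the basal layer, had 6.60 and 6.74 with vorinostat, against 7.32 and 7.11 with DMSO, and fell by 0.54 (SE 0.11, adjusted p = 0.0155 by limma), and its target Hes1 fell by 0.35 (SE 0.08, adjusted p = 0.0212). Ets2 fell by 0.50 (SE 0.10, adjusted p = 0.0177), Cebpd by 0.55 (SE 0.10, adjusted p = 0.0102) and Sp1 by 0.35 (SE 0.08, adjusted p = 0.028 by limma). A second probe set of Notch1 had -0.12 and did not pass, nor did the second of Cebpd (-0.17), both others of Sp1 (-0.18 and 0.03) or 1 of the 2 others of Ets2 (-0.12). Each of these 5 falls lost its call under reference-gene scaling and without at least 3 of the 4 arrays, with an adjusted p of up to 0.145.

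**Figure D4:**
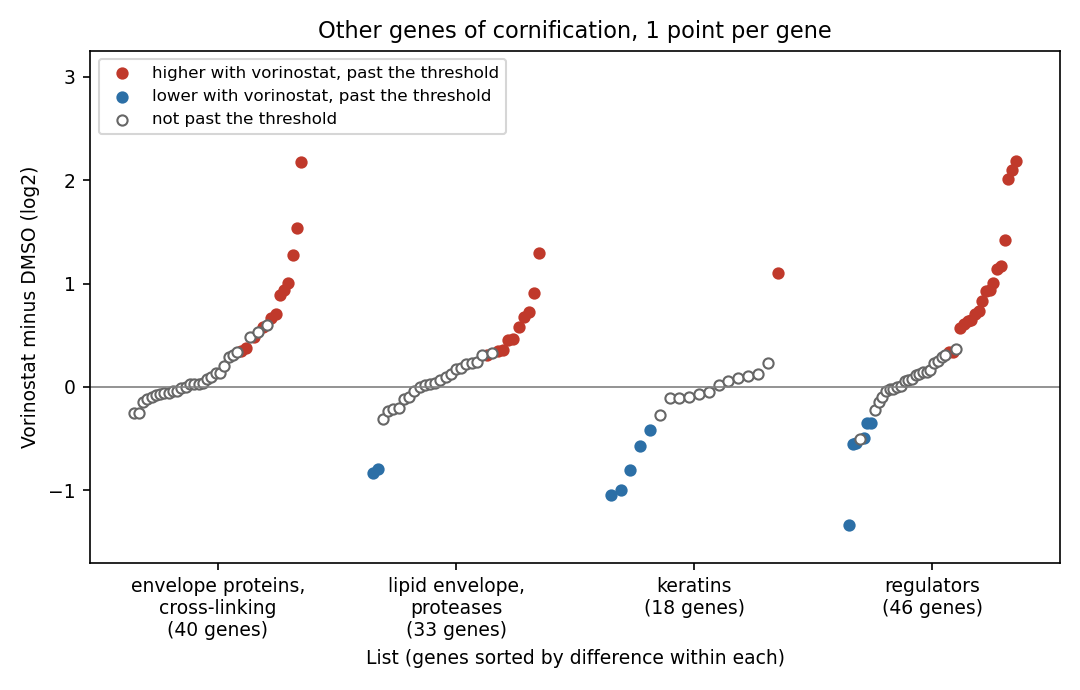
Log2 difference, vorinostat minus DMSO, of each measured gene (at its brightest probe set) in the 4 lists of other cornification genes, sorted within each list. Red points rose and blue points fell past the adjusted p threshold of 0.05, open points did not pass, and the keratins are the list with more falls (5) than rises (1).

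The label of the cells was set against markers. The epithelial genes Krt8, Krt18, Epcam and Cdh1 and the prostate factor Hoxb13 were far above the background limit, while Pbsn, a secretory protein of the prostate, was near background on all arrays, as were 6 of 9 immune and 2 of 4 endothelial markers. Of the 9 immune markers 2 rose and 0 fell past the threshold, where 20.9% of all genes rose. These were Cd3e, by 0.43 (adjusted p = 0.0158 by limma), and S100a8, near background, by 0.65 (adjusted p = 0.0143 by limma). The summed linear intensity of the 9 was 115 to 121 on vorinostat arrays and 103 to 105 on DMSO arrays. Of the 3 basal markers (Krt5, Krt14 and Trp63) 0 were near background on all arrays and 0 passed, nor did any endothelial marker. Of 10 keratinocyte markers outside the 10 genes, 4 were near background throughout (Krt1, Krt2, Flg and Krtdap) and 2 rose, Sbsn by 0.67 (adjusted p = 0.00892) and Casp14 by 0.34 (adjusted p = 0.0402 by limma). Sbsn was not called without DMSO 1 or DMSO 2, and Casp14 was not without any one array. The summed linear intensity of the 10 was 223 to 248 on vorinostat arrays and 212 to 217 on DMSO arrays. The 6 measured luminal markers summed to 5715 to 6436 on vorinostat arrays and 8584 to 8886 on DMSO arrays, with Krt8 lower and Hoxb13 higher. All 7 mesenchymal markers were above the limit. Of these, Pdgfra rose by 1.54, Dcn by 1.26 and Vim by 0.40, whereas Pdgfrb fell by 2.49 and Col3a1 by 0.89 (adjusted p from 0.000177 to 0.0322 by limma). Pdgfra, Dcn and Pdgfrb were called whichever array was left out, Col3a1 was not without DMSO 1 or DMSO 2, and Vim was not without any one array. The sum of the 7 was 19306 to 20435 on vorinostat arrays and 18633 to 18661 on DMSO arrays. The part of these markers in the differences of the Sprr genes was not tested.

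The genes whose pattern was most like that of Sprr2h were sought by the distance between the 4 array values, after each probe set was centred on its own mean. The nearest 5 of all other genes were Serpinb1a (distance 0.31), Akap12 (0.36), Uchl1 (0.49), Rab40b (0.50) and Cd68 (0.53), all on the log2 scale over 4 arrays. Akap12 had 9.62 and 9.28 with vorinostat, against 4.65 and 4.42 with DMSO, and Cd68 had 9.29 and 9.24 with vorinostat, against 4.53 and 4.69 with DMSO. Serpinb1a, Uchl1 and Rab40b were near background with DMSO, so their distances rest on values that the arrays do not resolve. With arrays of 2 groups of 2, such a likeness reflects mainly a difference of similar size.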

How the data were processed

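The deposited log2 values of 4 arrays were used as given. Per the submitters' processing notes, the authors made these log2 values by RMA in the Transcriptome Analysis Console (version unstated). RMA corrects background, equalises the distributions of the arrays and summarises probes in log2 units, so a shift common to every transcript is lost. Of 45101 probe sets, 64 controls were left out. The annotation gave 1 symbol to 34945 probe sets, several to 932 and none to 9160. All 13 probe sets of the 10 genes matched a RefSeq gene ID (GRCm38.p6), 9 of them also by transcript accession.

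The 2 groups were compared with limma 3.58.1 under R 4.3.3 (lmFit and eBayes, two-sided, no filter, no block), with Benjamini-Hochberg adjustment over 45037 probe sets and a threshold of 0.05. Every adjusted p is from this fit unless an alternative is named. Genes outside the 10 were taken at their brightest probe set, by the mean of all arrays. The number of arrays limits precision. The 10 genes, the 4 lists, the reference genes and the near-background margin were chosen with earlier results of these data known. The naming rule took all 10 genes, and from each list up to 6 rises and 6 falls past the threshold plus a set of genes named in any case; Prr9 was named after its values were seen. Alternatives were reference-gene scaling, renewed quantile normalization, an intensity trend, brighter probe sets only, a replicate block, another probe set per gene and the omission of each array.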

Additional observations from a re-analysis of the deposited data

How the results depend on the processing

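Depth in the sense of read counts does not apply to arrays, and the limit is signal over background, which left 4 of the 13 probe sets of the 10 genes unresolved. The direction of Sprr2h, Sprr1b, Sprr1a and Sprr2d was the same in all alternatives run. Without one array their differences ranged from 5.14 to 5.18, 4.05 to 4.38, 2.13 to 2.26 and 0.64 to 0.97. Most alternatives could not reverse these directions. An intensity trend, brighter probe sets only and a replicate block leave a difference unchanged, and reference-gene scaling adds 0.31 to each. Leaving out a single array cannot reverse groups that do not overlap. Only renewed quantile normalization could have changed a direction, so the sameness is no support for the rises. With arrays scaled on reference genes, the probe sets past the threshold numbered 23488 higher and 4292 lower (7440 and 7051 on the deposited scale), the 10 genes had 11 higher, and the lists had 29 higher (envelope proteins), 23 higher (lipid envelope and proteases), 7 higher (keratins), and 30 higher and 1 lower (regulators). Ehf, at -0.00 on the deposited scale, became 0.31 and was called. The mean of the reference genes rests largely on Gusb (-1.42) and Polr2a (-0.75). An intensity trend gave 1 lower envelope gene, and the probe set with the largest change gave 2 higher keratins.

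The labels give same-numbered arrays only a shared number, and the deviations of these arrays correlated at -0.06. With 2 arrays per group this is a single comparison, so it does not settle whether same-numbered arrays were handled together. With the replicate block, all probe sets past the threshold numbered 5856 higher and 5704 lower, the 10 genes again had 4 higher, the lipid and protease list had 6 higher and the regulators 3 lower. Without one array, where a lone array is assumed to vary like the other group, the calls over all probe sets ranged from 3778 to 4284 higher and from 3900 to 4575 lower, those of the 10 genes from 3 to 5 higher, of the envelope list from 5 to 10 higher, of the lipid and protease list from 5 to 6 higher, of the keratins from 2 to 3 lower, and of the regulators from 1 to 3 lower and 12 to 15 higher. The causes of these shifts were not tested, and leaving out an array both removes that array and lowers the number of arrays. Only 7 of the 13 probe sets could be tested among those above the median level.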
